A study of Mus musculus with 12 samples.

Results

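The comparison of coronary ligation with sham surgery was described here over all measured genes. The libraries were 3 labelled MI (myocardial infarction, made by permanently tying off the left anterior descending artery of the heart) and 3 labelled Sham, chosen by their column names out of 12 libraries in all. The other 6 came from ligated mice given Fer-1 or Lip-1 and entered the model for its estimate of spread. Per the labels, every sample was ventricle tissue of wild-type male C57BL/6J mice aged 6 to 8 weeks, operated on under pentobarbital. No compound beyond the anaesthetic is named for the MI and Sham mice, and what the sham operation left out is not described. The time from ligation to collection, the position of the sample relative to the infarct and the number of animals behind a library are not given in the sources used here. A p-value below therefore measures only the spread between these libraries, which may be technical.

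Blocking a coronary artery starves heart muscle of oxygen, and the injured tissue then releases molecules that set off sterile inflammation. In that response the transcription factor NF-kappaB switches on cytokines, chemokines and adhesion molecules together with its own inhibitors. Fibroblasts later lay down a collagen scar under the control of TGF-beta and related ligands, while the surviving muscle adjusts its metabolism and contractile proteins.

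Tissue and species labels were checked against the data. All 16910 tested genes carry the Ensembl prefix for rat although the labels give mouse. Markers of heart muscle were abundant as a group, with a summed level of 13400 to 14900 FPKM (fragments scaled for gene length and depth) in MI and 14800 to 15500 FPKM in Sham over 19 genes. Of 12 energy genes of adult heart muscle 10 exceeded 1 FPKM in every library. The list summed to 1100 to 1270 FPKM in MI and 1220 to 1260 FPKM in Sham, most of it from Cox6a2, Fabp3 and Ldhb. The others above 1 FPKM ran from Pygm, at 56.5 to 68.3 FPKM over the 6 libraries, down to Ckmt2, at 2.19 to 4.99 FPKM. Myoglobin (Mb), which stores oxygen in adult heart muscle, was at 26.5, 31.2 and 22.6 FPKM in MI, against 20.0, 20.3 and 24.4 FPKM in Sham. Cox7a1, a heart and muscle subunit of cytochrome oxidase, lay under 1 FPKM in all 6 libraries. Red cell, neutrophil and T cell markers were scarce. Hbb (beta globin) reached at most 6.50 FPKM in MI and 8.62 FPKM in Sham. S100a8 of neutrophils had 27, 84 and 40 reads in MI against 40, 28 and 56 in Sham. Cd3e of T cells had 0 reads in each. Macrophage and monocyte markers were not scarce, at a summed 494 to 576 FPKM in MI and 500 to 546 FPKM in Sham over 17 genes. Mb, Cox7a1 and the red cell, neutrophil and T cell genes were low for adult ventricle with its blood. Whether the libraries came from whole ventricle was not tested, and MI and Sham name the labels below.

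**Figure D1:**
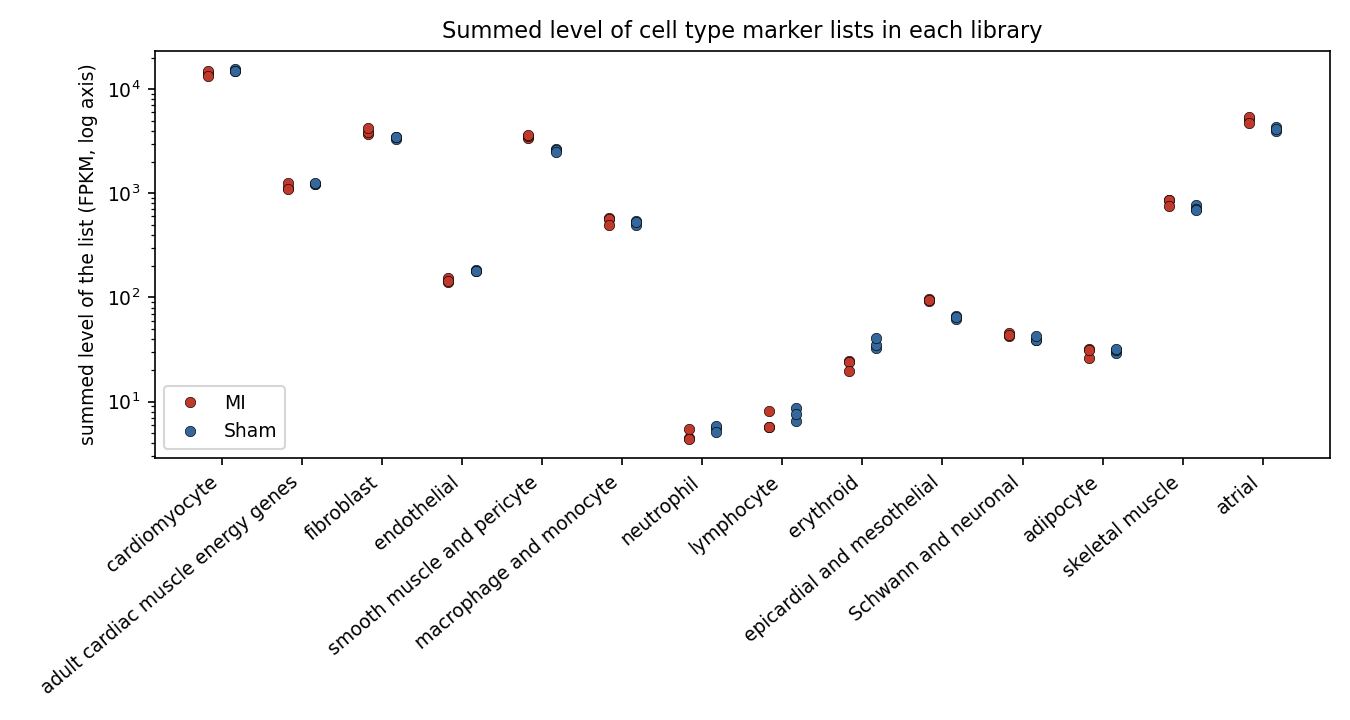
Summed level of each cell type marker list in each library (FPKM, log axis), with the 3 MI libraries left of the 3 Sham libraries. Smooth muscle, epicardial, fibroblast, atrial, and Schwann and neuronal sums were higher in every MI library than in every Sham library. Most of the atrial sum was Nppa (5018 of 5133 FPKM in MI 1, 3854 of 3978 FPKM in Sham 1). Col1a1 was the largest part of the fibroblast sum (2186 of 3745 FPKM in MI 1, 1602 of 3329 FPKM in Sham 1). Endothelial and erythroid sums were lower. FPKM was scaled for length and depth and not by TMM.

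Totals ran from 46.7 to 60.7 M counts (M for mega) in MI and from 45.5 to 58.7 M counts in Sham. Of 16910 tested genes, 7369 (43.6%) were called at an edgeR false discovery rate of 0.05, with 3860 (22.8%) higher in MI and 3509 (20.8%) lower. Most called genes moved little, and 63.2% of them changed less than 1.5-fold. A change of at least 2-fold was called for 718 genes (4.25%) higher in MI and 290 (1.71%) lower. All 3 MI values lay above all 3 Sham values in 27.1% of tested genes and below them in 26.7%. The genes at least 2-fold higher held 6.06, 5.88 and 6.17% of all scaled counts in MI, against 2.04, 2.2 and 2.11% in Sham. Counts were scaled so that most genes do not change (TMM). Scaling by library size alone moved the median log2 fold change of all genes to -0.167. It moved the split of calls to 2414 higher and 5943 lower. Counts of the gene lists and named transcription factor families that move by over 1.5 times under it are therefore given beside the main ones. The main shares of all tested genes (22.8% higher, 20.8% lower) are the background to every list count below.

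**Figure D2:**
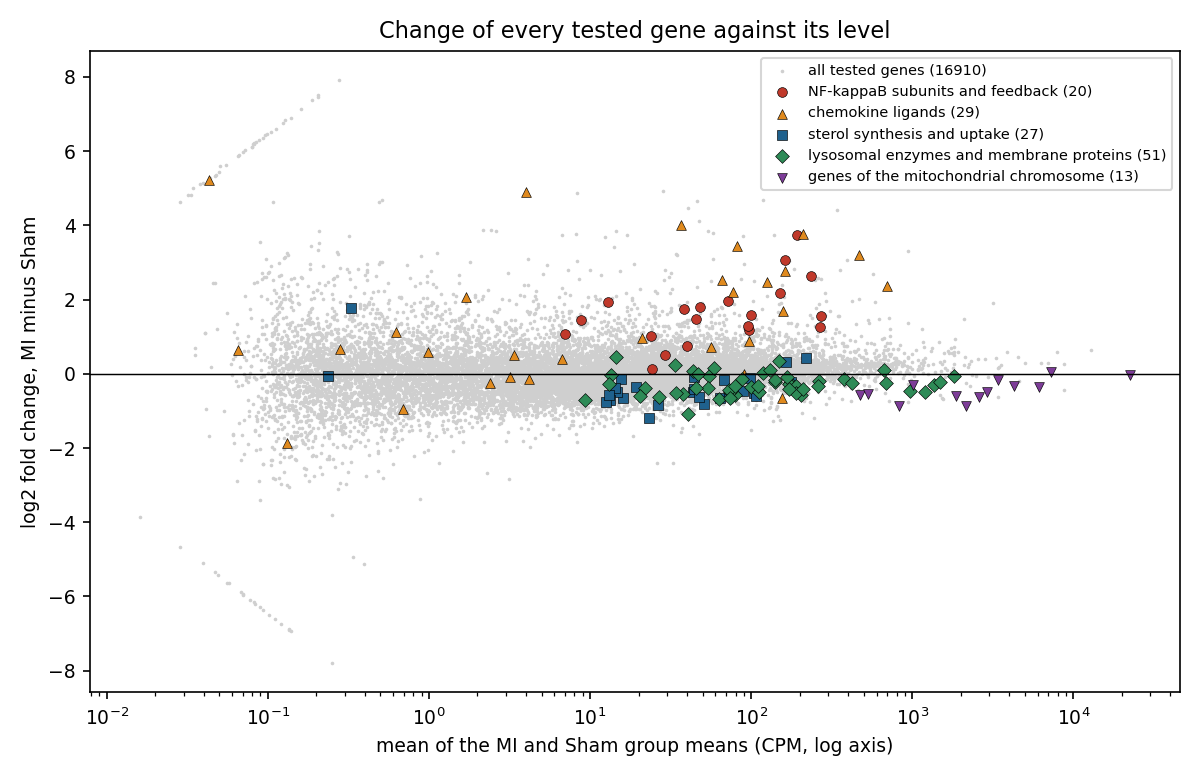
Log2 fold change (MI minus Sham) of every tested gene against the mean of both group means in CPM (log axis), with 5 gene lists marked. NF-kappaB genes and most chemokines lie above 0, while sterol, lysosomal and mitochondrial chromosome genes lie mostly below it.

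The largest rises were cytokines, chemokines and enzymes known from activated macrophages. Levels are in CPM (counts scaled to a common library size by TMM), and group values are means ± SD of 3 libraries. Acod1, the enzyme that makes the antimicrobial metabolite itaconate (chromosome 15, 93612971 to 93622358 in the files' coordinates, build not given), stood at 54.7, 56.8 and 53 CPM in MI, against 0.728, 1.81 and 2.69 CPM in Sham. Its log2 fold change was 4.93 ± 0.26 (SE, edgeR adjusted p = 2.1e-07). Nos2, the inducible nitric oxide synthase, had 637, 598 and 725 CPM in MI, against 12.2, 41.3 and 37.6 CPM in Sham. The interleukin gene Il1b had 226, 236 and 220.2 CPM in MI, against 4.25, 10.7 and 11.1 CPM in Sham. The rule that picked these genes required no overlap between MI and Sham. In each of them Sham replicate 1 was the lowest library of the 6. Without it the log2 fold changes were 4.59 for Acod1, 4.05 for Nos2 and 4.38 for Il1b, against 4.42 ± 0.40 (Nos2) and 4.69 ± 0.28 (Il1b) with it. The other 9 of the 12 largest rises were Ccl22, Csf2, Sele, Csf3, Ccl20, Tnfaip6, Wnt10b, Il1a and Cxcl6. Sele, the endothelial adhesion molecule E-selectin, averaged 89 ± 9.63 CPM in MI against 3.5 ± 1.15 CPM in Sham. The granulocyte growth factor Csf3 averaged 89.7 ± 7.33 CPM in MI against 5.07 ± 2.42 CPM in Sham, and Csf2, which supports granulocytes and macrophages, averaged 16 ± 2.67 CPM in MI against 0.523 ± 0.469 CPM in Sham.

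**Figure D3:**
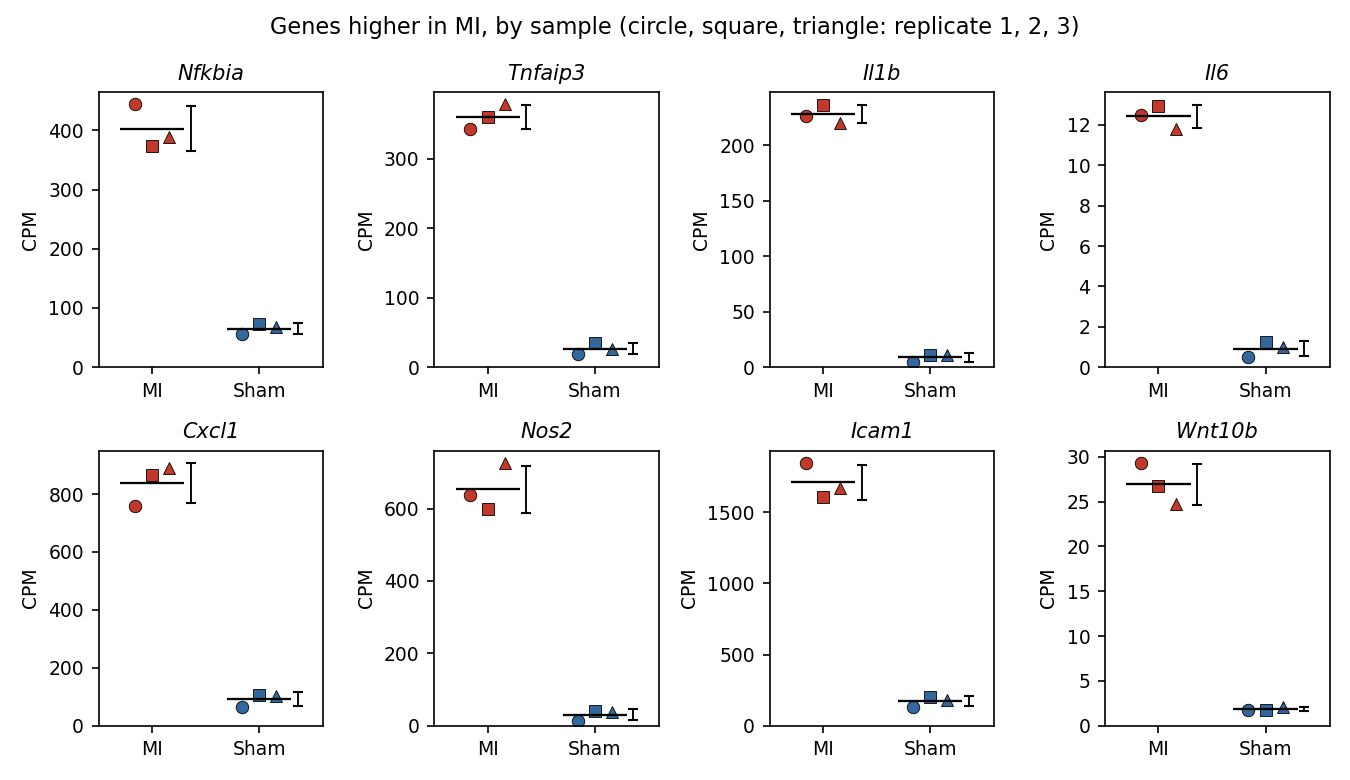
CPM of 8 genes in each library (MI left, Sham right), with group means as lines and SD bars (n = 3 each). In all 8 panels every MI library lies above every Sham library.

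NF-kappaB genes rose nearly as a whole. Of 20 tested subunits and feedback genes, 19 were higher in MI and 0 were lower, with a median log2 fold change of 1.52, against 22.8% higher, 20.8% lower and a median of -0.00437 over all tested genes. Nfkbia, the inhibitor that holds NF-kappaB in the cytoplasm, had 445, 373 and 389 CPM in MI, against 55.3, 72.9 and 67.1 CPM in Sham (log2 fold change 2.63 ± 0.11, edgeR adjusted p = 2.3e-09). Tnfaip3 encodes A20, a ubiquitin-editing brake on the pathway, and had 343, 360.3 and 378 CPM in MI, against 19, 34.5 and 26.8 CPM in Sham (log2 fold change 3.75 ± 0.18, edgeR adjusted p = 1.7e-07). All MI libraries exceeded all Sham libraries in both genes. The anti-apoptotic ubiquitin ligase Birc3 averaged 290.2 ± 10.2 CPM in MI against 34.5 ± 6.13 CPM in Sham. The 5 subunits rose by different amounts. Nfkb2 averaged 248 ± 14.3 CPM in MI against 55.1 ± 3.74 CPM in Sham, Relb 75 ± 3.37 in MI against 21.6 ± 1.84 in Sham, Nfkb1 404 ± 16.9 in MI against 136 ± 8.64 in Sham and Rela 134 ± 1.15 in MI against 59.7 ± 3.36 in Sham CPM. Rel, the scarcest subunit, averaged 9.52 ± 1.85 CPM in MI against 4.49 ± 0.616 CPM in Sham. Cyld, a deubiquitinase that also restrains the pathway, did not pass the test (log2 fold change 0.13 ± 0.073, edgeR adjusted p = 0.18). In 18 of the 20 genes Sham replicate 1 was the lowest Sham library, which was so in 35.2% of all tested genes. The count of 19 higher held with any single library left out.

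Promoters of the genes that rose were searched for a kappaB site because several of them are textbook targets of NF-kappaB. Promoters were matched by symbol to the RefSeq mouse table (GRCm38.p6, 250 bases before to 50 after the start site), which gave 1 promoter for each of 10845 tested symbols. The letters GGGANTTTCC, on either strand, were present in 12 of 487 promoters (2.46%) of genes at least 2-fold higher in MI, in 1 of 178 (0.562%) of genes at least 2-fold lower, and in 51 of 10845 (0.470%) of all. Other letters searched were not more frequent in that way: ACGTG, the core bound by hypoxia-inducible factors, was present in 99 of the 487 (20.3%) and in 2682 of all (24.7%), CACGTG, which contains it, in 31 (6.37%) and in 1058 (9.76%), and TCACNCCAC, a sterol element, in 7 (1.44%) and in 125 (1.15%). The 12 genes with the kappaB letters were Il6, Cxcl2, Cxcl1, Neurl3, Cxcl3, Gbp5, Nfkbia, Tnn, Ltb, Madcam1, Csf1 and Ifngr2. A match describes letters in a mouse sequence and not binding in these samples. The promoters of the 3 largest rises among them and of Nfkbia are shown, with the matched letters in capitals.
Il6 (chr5:30012864-30013163, plus strand): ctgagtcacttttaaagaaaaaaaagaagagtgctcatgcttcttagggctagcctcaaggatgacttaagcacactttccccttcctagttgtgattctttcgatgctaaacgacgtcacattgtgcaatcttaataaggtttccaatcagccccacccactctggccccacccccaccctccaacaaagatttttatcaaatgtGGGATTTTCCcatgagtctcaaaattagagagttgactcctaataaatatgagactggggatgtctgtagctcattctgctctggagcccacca
Cxcl2 (chr5:90903649-90903948, plus strand): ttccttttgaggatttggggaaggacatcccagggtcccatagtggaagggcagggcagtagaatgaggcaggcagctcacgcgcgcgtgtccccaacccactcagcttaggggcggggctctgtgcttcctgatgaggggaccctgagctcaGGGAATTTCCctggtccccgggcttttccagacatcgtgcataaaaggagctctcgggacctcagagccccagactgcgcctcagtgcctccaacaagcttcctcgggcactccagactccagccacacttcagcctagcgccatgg
Cxcl1 (chr5:90890995-90891294, plus strand): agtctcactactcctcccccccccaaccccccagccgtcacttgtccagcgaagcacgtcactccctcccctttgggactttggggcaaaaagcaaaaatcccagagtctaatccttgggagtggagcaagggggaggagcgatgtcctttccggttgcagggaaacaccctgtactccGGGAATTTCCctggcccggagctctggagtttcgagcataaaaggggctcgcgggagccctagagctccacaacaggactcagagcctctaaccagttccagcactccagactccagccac
Nfkbia (chr12:55492598-55492897, minus strand): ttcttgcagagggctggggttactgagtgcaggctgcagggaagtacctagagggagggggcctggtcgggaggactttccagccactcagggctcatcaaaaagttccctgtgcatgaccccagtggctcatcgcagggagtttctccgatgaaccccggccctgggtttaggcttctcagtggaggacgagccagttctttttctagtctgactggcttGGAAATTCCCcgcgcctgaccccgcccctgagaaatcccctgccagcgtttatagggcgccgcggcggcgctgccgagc
The match began 44 bases before the start site in Il6, 97 in Cxcl2, 71 in Cxcl1 and 29 in Nfkbia.

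In the libraries, the 3 secreted factors among them differed several-fold. Il6, a cytokine that drives the acute phase response, had 12.5, 13 and 11.8 CPM in MI, against 0.506, 1.23 and 1.02 CPM in Sham. Cxcl1, which draws neutrophils, had 759, 867 and 889 CPM in MI, against 64.6, 106 and 104 CPM in Sham (log2 fold change 3.19 ± 0.18, edgeR adjusted p = 5.9e-07). Its neighbour Cxcl2 averaged 149 ± 1.47 CPM in MI against 13.5 ± 3.09 CPM in Sham. Cxcl1, Cxcl2 and Cxcl3 are close copies, so reads could be split among them.

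Among all chemokine ligands, 17 of 29 tested were higher in MI and 2 were lower (median log2 fold change 0.95). The 8 largest called rises were Ccl22, Ccl20, Cxcl6, Cxcl2, Cxcl1, Cxcl3, Ccl4 and Cx3cl1. Ccl20, a ligand of CCR6 on lymphocytes and dendritic cells, averaged 69.2 ± 3.26 CPM in MI against 4.22 ± 2.04 CPM in Sham. The monocyte attractant Ccl2 was the most abundant of the called rises at 1163 ± 71.9 CPM in MI against 225 ± 40.4 CPM in Sham. Ccl3 averaged 127 ± 9.45 CPM in MI against 27.6 ± 3.89 CPM in Sham and Ccl7 averaged 239.6 ± 6.91 CPM in MI against 73.9 ± 13.2 CPM in Sham. Cxcl12 and Cxcl17 went the other way. Cxcl12, which retains CXCR4-bearing cells in tissue, averaged 122 ± 6.85 CPM in MI against 190.4 ± 11.6 CPM in Sham, and the scarce Cxcl17 averaged 0.474 ± 0.12 CPM in MI against 0.914 ± 0.212 CPM in Sham. The interferon-induced ligands were less uniform, as Cxcl10 averaged 27.8 ± 1.4 CPM in MI against 14.3 ± 3.81 CPM in Sham while Cxcl9 did not pass the test (1.19 ± 0.163 CPM in MI against 0.791 ± 0.249 CPM in Sham, edgeR adjusted p = 0.16). Sham replicate 1 was the lowest Sham library in 21 of 29 members.

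Receptors that feed into this pathway changed in both directions. Of 20 tested innate sensors and adaptors, 10 were higher in MI and 5 were lower. Tlr2, a sensor of bacterial lipoproteins, averaged 94.8 ± 5.26 CPM in MI against 28.1 ± 3.22 CPM in Sham, and Ripk2, the kinase behind the NOD sensors, averaged 307 ± 11.5 CPM in MI against 37.3 ± 5.23 CPM in Sham. By contrast Tlr4, the endotoxin receptor, averaged 6.07 ± 0.588 CPM in MI against 11.9 ± 0.591 CPM in Sham, and Tlr3, the sensor of double-stranded RNA, averaged 4.98 ± 0.295 CPM in MI against 10.7 ± 0.808 CPM in Sham. The shared adaptor Myd88 moved only slightly, to 52 ± 2.35 CPM in MI against 59.3 ± 5.46 CPM in Sham. Of 26 interleukin and TNF receptors, 16 were higher and 4 lower. Il1rl1 encodes ST2, the receptor of interleukin 33 and a blood marker of heart strain, and had 242, 243 and 243 CPM in MI, against 57.5, 65.5 and 70.3 CPM in Sham. Tnfrsf11b, the decoy receptor osteoprotegerin, had 247, 258 and 269 CPM in MI, against 56, 64.3 and 62.4 CPM in Sham. Neither gene overlapped between groups. Lifr, the receptor of leukaemia inhibitory factor, averaged 60.1 ± 5.8 CPM in MI against 106 ± 2.03 CPM in Sham.

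Genes downstream of cytokine receptors split. In the JAK-STAT list 9 of 20 tested genes were higher and 5 were lower, and with library size alone 8 and 9. Jak2, a kinase bound to many cytokine receptors, had 422, 425 and 450.1 CPM in MI, against 134, 143 and 153 CPM in Sham (log2 fold change 1.59 ± 0.05, edgeR adjusted p = 5.8e-14). Stat5a averaged 119 ± 9.48 CPM in MI against 38.4 ± 3.37 CPM in Sham. The feedback inhibitor Socs3 averaged 98.5 ± 3.72 CPM in MI against 54.3 ± 1.54 CPM in Sham. Stat2, which carries the type I interferon signal, was lower, at 103 ± 2.28 CPM in MI against 161 ± 10.3 CPM in Sham. Feedback inhibitors of MAP kinases showed 10 of 19 genes higher and 1 lower, and with library size alone 9 and 3. The phosphatase Dusp5 averaged 20.9 ± 1.35 CPM in MI against 11.3 ± 1.75 CPM in Sham and the receptor antagonist Spry4 averaged 65.3 ± 5.47 CPM in MI against 39 ± 3.51 CPM in Sham.

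Transcripts of the nitric oxide synthases were higher in MI for the inducible form and lower for the endothelial one. Of 26 tested genes of arginine, nitric oxide and polyamine metabolism, 15 were higher in MI and 7 lower. Beside Nos2, the cofactor enzymes of tetrahydrobiopterin synthesis rose. Gch1, the first and rate-limiting step, had 54.5, 48.8 and 50.4 CPM in MI, against 6.69, 9.52 and 6.1 CPM in Sham, and Spr, the last step, had 82.1, 79.3 and 73.9 CPM in MI, against 20.0, 22.1 and 21.1 CPM in Sham. Arginine supply genes rose as well, with Ass1, which regenerates arginine from citrulline, at 50.3 ± 6.38 CPM in MI against 20.6 ± 2.51 CPM in Sham and the transporter Slc7a2 at 92.9 ± 3.72 CPM in MI against 52.2 ± 0.405 CPM in Sham. Arg1, which competes for arginine, averaged 60.4 ± 6.12 CPM in MI against 22.2 ± 1.55 CPM in Sham. Endothelial Nos3 averaged 13.5 ± 1.41 CPM in MI against 19.7 ± 2.29 CPM in Sham. Gucy1a1, a subunit of the guanylyl cyclase that senses nitric oxide, averaged 7.53 ± 1.13 CPM in MI against 17.5 ± 0.416 CPM in Sham. Polyamine genes moved too: Odc1, the first step of synthesis, averaged 121 ± 3.46 CPM in MI against 69.4 ± 3.85 CPM in Sham, and the catabolic enzymes Smox and Sat1 averaged 40.1 ± 4.0 CPM in MI against 13.3 ± 1.0 CPM in Sham (Smox) and 293 ± 22.7 CPM in MI against 146 ± 9.09 CPM in Sham (Sat1).

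Transcripts for both inducible steps of prostaglandin E2 synthesis were higher in MI. Ptgs2, the inducible cyclooxygenase, had 223, 262 and 291 CPM in MI, against 11.8, 24.8 and 20.9 CPM in Sham (log2 fold change 3.75 ± 0.24, edgeR adjusted p = 2.5e-06). Ptges, the inducible synthase that makes prostaglandin E2, had 192, 153 and 187 CPM in MI, against 25.2, 35.5 and 33.3 CPM in Sham. In both genes the lowest MI library was above the highest Sham library. Hpgd, which inactivates prostaglandins, averaged 3.64 ± 0.714 CPM in MI against 6.79 ± 0.224 CPM in Sham. Among the receptors, Ptger2 averaged 4.13 ± 0.468 CPM in MI against 1.86 ± 0.504 CPM in Sham and the prostacyclin receptor Ptgir 18.4 ± 3.28 in MI against 8.83 ± 0.853 in Sham CPM, whereas Ptger1 averaged 7.36 ± 0.52 CPM in MI against 16.1 ± 1.95 CPM in Sham and Ptger4 3.08 ± 0.119 in MI against 6.39 ± 0.285 in Sham CPM. The whole list gave 10 of 25 genes higher and 6 lower, and with library size alone 7 and 9.

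Complement and antigen presentation did not follow the cytokines. Of 26 tested complement genes, 5 were higher in MI and 11 lower, and with library size alone 3 and 12. Serping1, the inhibitor of the first complement enzymes, had 525, 550.1 and 544 CPM in MI, against 895, 909.7 and 906 CPM in Sham. C6, part of the membrane attack complex, averaged 10.9 ± 0.558 CPM in MI against 23.4 ± 0.812 CPM in Sham, and C4b averaged 88.6 ± 3.9 CPM in MI against 147 ± 3.9 CPM in Sham, where the near-identical C4a makes both uncertain. The 3 chains of C1q, made largely by macrophages, were higher, with C1qa at 59.8 ± 3.75 CPM in MI against 43.9 ± 2.52 CPM in Sham. Antigen processing genes gave 9 of 27 higher and 2 lower, which turned to 2 higher and 6 lower with library size alone. Their share called under the main scaling, 40.7%, was near the 43.6% of all tested genes. Tap1, a peptide transporter, averaged 44.7 ± 1.9 CPM in MI against 36 ± 2.52 CPM in Sham. In the macrophage and monocyte marker list 9 of 17 tested genes were higher and 3 lower, and its summed level was 494 to 576 FPKM in MI and 500 to 546 FPKM in Sham. The pan-leukocyte gene Ptprc averaged 24.2 ± 1.87 CPM in MI against 16.8 ± 0.503 CPM in Sham. The part of macrophage content in these values was not tested. In bulk RNA, fewer cells of a type and less RNA per cell cannot be told apart.

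In the list of VEGF, angiopoietin and PDGF genes, 14 of 27 were higher and 5 lower, and with library size alone 13 and 9. Vegfa, the main growth factor of blood vessels, had 1433, 1235 and 1385 CPM in MI, against 579, 497 and 505 CPM in Sham (log2 fold change 1.36 ± 0.095, edgeR adjusted p = 1.6e-07). Angptl4, a secreted inhibitor of lipoprotein lipase, had 697, 683 and 739 CPM in MI, against 69.9, 93.4 and 91.4 CPM in Sham. Placental growth factor Pgf averaged 159 ± 12.6 CPM in MI against 20.6 ± 1.04 CPM in Sham. The VEGF receptors diverged, with Flt1 at 183 ± 1.59 CPM in MI against 84.8 ± 5.27 CPM in Sham and Kdr, the main signalling receptor, at 43.4 ± 0.994 CPM in MI against 51.7 ± 0.706 CPM in Sham. The receptor of apelin, Aplnr, averaged 2.59 ± 0.677 CPM in MI against 5.59 ± 0.824 CPM in Sham, while its ligand Apln averaged 80.3 ± 4.0 CPM in MI against 34 ± 1.19 CPM in Sham. Pdgfra, the PDGF receptor of fibroblasts, averaged 1017 ± 53.5 CPM in MI against 439 ± 28.4 CPM in Sham. Endothelial markers summed to 141 to 154 FPKM in MI and 181 to 183 FPKM in Sham. The most abundant of them, Eng, was lower. Of the 11 markers, 2 were higher (Vwf and Esam) and 3 lower, or 2 and 8 with library size alone. The 45.5% called under the main scaling was near the 43.6% of all tested genes. The part of endothelial content in these values was not tested.

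EGF family genes gave 8 of 16 higher and 3 lower. The ligands Hbegf and Tgfa averaged 43.5 ± 7.32 CPM in MI against 21.6 ± 1.54 CPM in Sham (Hbegf) and 11 ± 1.16 CPM in MI against 4.3 ± 0.90 CPM in Sham (Tgfa), and the receptor Egfr averaged 94.8 ± 5.3 CPM in MI against 56.8 ± 3.36 CPM in Sham. The neuregulin receptors of heart muscle, Erbb2 and Erbb4, were lower, at 24.5 ± 0.934 CPM in MI against 29.6 ± 2.86 CPM in Sham (Erbb2) and 3.31 ± 0.657 CPM in MI against 5.01 ± 0.666 CPM in Sham (Erbb4), while their ligand Nrg1 averaged 15.3 ± 0.977 CPM in MI against 8.95 ± 0.696 CPM in Sham. Of 18 FGF genes, 5 were higher and 2 lower, so the higher share was near that of all tested genes. Fgf23, a hormone of phosphate balance known mainly from bone, had 15.8, 15.9 and 20.7 CPM in MI, against 3.66, 3.64 and 4.74 CPM in Sham, with no overlap. Sdc4, a cell-surface proteoglycan that presents FGFs, had 726, 748 and 771 CPM in MI, against 172, 200.1 and 187 CPM in Sham.

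TGF-beta and activin genes were mostly higher. Of 25 tested, 18 were higher in MI and 5 lower, with a median log2 fold change of 0.52. The ligands Tgfb1, Tgfb2 and Tgfb3 were all higher, Tgfb3 the most, at 145 ± 3.31 CPM in MI against 81.3 ± 4.41 CPM in Sham. Gdf15, a stress-induced ligand, averaged 37 ± 6.73 CPM in MI against 10.5 ± 1.43 CPM in Sham, and Inhba, a chain of activin A, averaged 24.7 ± 4.62 CPM in MI against 9.66 ± 1.86 CPM in Sham. The signal carrier Smad3 had 161, 175 and 160.1 CPM in MI, against 84.7, 89.7 and 84.9 CPM in Sham (log2 fold change 0.94 ± 0.058, edgeR adjusted p = 3.6e-10). The receptors were slightly lower: Tgfbr1 averaged 48.4 ± 3.56 CPM in MI against 56.3 ± 1.67 CPM in Sham, Tgfbr2 164 ± 5.7 in MI against 179.9 ± 8.77 in Sham and Tgfbr3 233 ± 1.03 in MI against 289.7 ± 8.55 in Sham CPM. Ski, which represses Smad activity, averaged 22.2 ± 0.723 CPM in MI against 39.1 ± 1.63 CPM in Sham. Of 30 BMP genes, 12 were higher and 8 lower, which turned to 9 higher and 11 lower with library size alone. The ligand Bmp2 and its extracellular antagonist Nog rose, at 18.1 ± 0.416 CPM in MI against 7.33 ± 0.818 CPM in Sham (Bmp2) and 11.3 ± 1.46 CPM in MI against 3.5 ± 0.707 CPM in Sham (Nog), and the target Id3 averaged 79.1 ± 10.7 CPM in MI against 103 ± 2.71 CPM in Sham.

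Wnt ligands and their receptors also differed in direction. Wnt10b, a ligand of the beta-catenin pathway, had 29.3, 26.7 and 24.8 CPM in MI, against 1.72, 1.76 and 2.1 CPM in Sham (log2 fold change 3.85 ± 0.16, edgeR adjusted p = 4.2e-12). Of 43 tested Wnt genes, 12 were higher and 15 lower. Among the Frizzled receptors 7 were lower, with Fzd4 at 40.5 ± 1.86 CPM in MI against 54.7 ± 1.35 CPM in Sham and Fzd5 at 3.64 ± 0.362 CPM in MI against 7.91 ± 0.641 CPM in Sham, while Fzd6 and Fzd7 were higher. Axin2, a target that reports beta-catenin activity, averaged 3.9 ± 0.532 CPM in MI against 6.32 ± 0.798 CPM in Sham. Notch genes were higher more often than lower, with 12 of 19 higher and 1 lower, and with library size alone 8 and 1. Rbpj, the DNA-binding partner of Notch, had 545, 494 and 508 CPM in MI, against 165, 184 and 176 CPM in Sham. The targets Hes1 and Heyl averaged 32.8 ± 1.37 CPM in MI against 18 ± 1.15 CPM in Sham (Hes1) and 18.2 ± 2.44 CPM in MI against 8.31 ± 1.39 CPM in Sham (Heyl). In the list of guidance genes 14 of 40 were higher and 11 lower, which turned to 9 higher and 18 lower with library size alone. The receptor Epha2 averaged 56.3 ± 6.52 CPM in MI against 21.5 ± 0.439 CPM in Sham.

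Collagen and hyaluronan genes were higher more often than lower. Of 35 tested collagen chains, 23 were higher in MI and 2 lower, with a median log2 fold change of 0.46. With library size alone, 16 were higher and 4 lower. Col1a1, the chain of scar collagen, had 15259.6, 15328 and 16455 CPM in MI, against 9975, 10378 and 9715 CPM in Sham (log2 fold change 0.65 ± 0.04, edgeR adjusted p = 3.7e-10). Col12a1, which decorates collagen fibrils, averaged 1880.0 ± 69.6 CPM in MI against 1042 ± 29.7 CPM in Sham, and Col11a1 averaged 73.5 ± 6.96 CPM in MI against 35 ± 3.25 CPM in Sham. The largest rises of the proteoglycan and hyaluronan list were in hyaluronan genes. Has2, the main hyaluronan synthase, had 29.9, 33.3 and 36.6 CPM in MI, against 3.09, 3.97 and 5.72 CPM in Sham, and Tnfaip6, which cross-links hyaluronan, had 103, 92.8 and 107 CPM in MI, against 3.7, 9.06 and 7.95 CPM in Sham. Cd44, the hyaluronan receptor, averaged 316 ± 10.5 CPM in MI against 127 ± 6.39 CPM in Sham. The degrading enzymes Hyal1 and Hyal2 were lower, at 5.64 ± 1.27 CPM in MI against 9.1 ± 0.0905 CPM in Sham (Hyal1) and 33 ± 2.33 CPM in MI against 57.6 ± 2.41 CPM in Sham (Hyal2). Decorin (Dcn), which binds collagen and TGF-beta, averaged 992 ± 55.5 CPM in MI against 1479 ± 62.3 CPM in Sham. Over the proteoglycan and hyaluronan list 16 of 29 were higher and 3 lower.

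Proteases of the matrix were split by member. Of 39 tested, 22 were higher and 8 lower, and with library size alone 16 and 14. The collagenase Mmp13 had 15, 13.6 and 17 CPM in MI, against 0.87, 1.51 and 0.985 CPM in Sham, and Adamts4, which cleaves aggrecan and versican, had 101, 87.2 and 125 CPM in MI, against 9.28, 13.6 and 13.6 CPM in Sham. Mmp9, a gelatinase of leukocytes, averaged 95.3 ± 5.44 CPM in MI against 16.7 ± 2.62 CPM in Sham. The other gelatinase, Mmp2, went the other way at 1188 ± 46.4 CPM in MI against 1849.5 ± 42.7 CPM in Sham, as did Adamts5 at 18.4 ± 0.779 CPM in MI against 47.5 ± 2.3 CPM in Sham. The inhibitors Timp1 and Timp3 rose, with Timp1 at 490.2 ± 22.7 CPM in MI against 293 ± 17.7 CPM in Sham, while Timp4, which is known from heart, averaged 0.427 ± 0.115 CPM in MI against 1.13 ± 0.397 CPM in Sham. Of 25 integrin subunits, 14 were higher and 3 lower, and with library size alone 9 and 7. Itga5, which pairs with beta 1 to bind fibronectin, had 942, 850.0 and 948 CPM in MI, against 317, 339 and 326 CPM in Sham. Fibronectin (Fn1), thrombospondin 1 (Thbs1) and the adhesion molecule Icam1 had large gains in absolute level and were picked out after their values were seen. Fn1 averaged 9478 ± 343 CPM in MI against 6301 ± 117 CPM in Sham, Thbs1 3061 ± 137 in MI against 1100.0 ± 13.8 in Sham and Icam1 1710.4 ± 125 in MI against 172 ± 34.4 in Sham CPM.

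**Figure D4:**
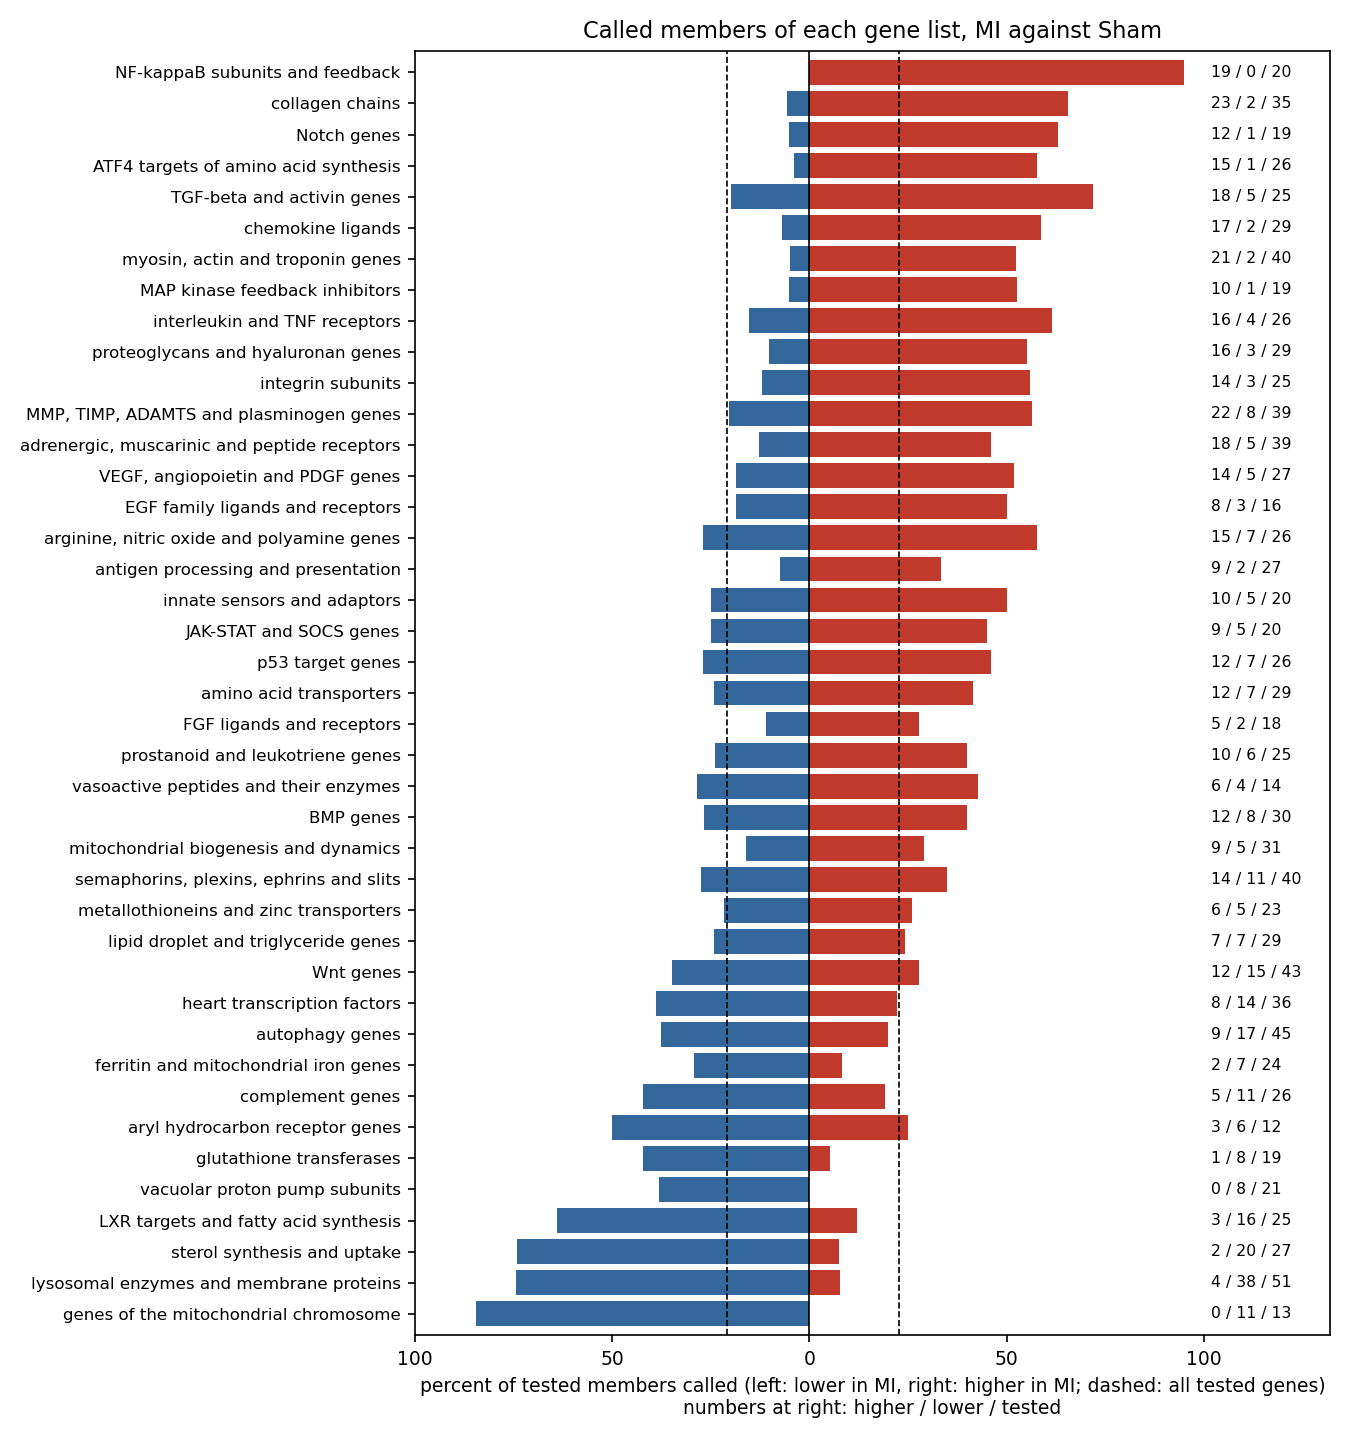
Percent of tested members of each pathway list called lower (left, blue) and higher (right, red) in MI, with higher, lower and tested numbers at the right and the shares of all tested genes as dashed lines (22.8% higher, 20.8% lower). NF-kappaB genes stand at the top, with 19 higher of 20, and genes of the mitochondrial chromosome at the bottom, with 11 lower of 13.

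Lysosomal genes were lower over most of the list. Of 51 tested enzymes and membrane proteins, 38 were lower in MI and 4 higher, with a median log2 fold change of -0.32, and with library size alone 43 and 2. Mcoln1, the lysosomal calcium channel, had 26.6, 29.1 and 22.2 CPM in MI, against 56.3, 54.2 and 55.2 CPM in Sham (log2 fold change -1.09 ± 0.077, edgeR adjusted p = 2.3e-09). The abundant membrane protein Lamp1 averaged 822 ± 31.2 CPM in MI against 1126 ± 36.6 CPM in Sham, the protease Ctsl averaged 1002 ± 31 CPM in MI against 1395 ± 66.5 CPM in Sham, and Gaa, which breaks down glycogen, averaged 163 ± 0.367 CPM in MI against 244 ± 8.91 CPM in Sham. Npc1, which exports cholesterol from lysosomes, averaged 57.8 ± 1.9 CPM in MI against 90.6 ± 0.893 CPM in Sham. The 4 called higher under the main scaling were Acp5, Ctsz, Ctss and Neu1, of which Ctss and Neu1 did not pass the test with library size alone. Subunits of the proton pump that acidifies lysosomes gave 8 of 21 lower and 0 higher, and with library size alone 15 lower. Autophagy genes gave 9 of 45 higher and 17 lower, and with library size alone 4 and 27. The mitophagy receptor Bnip3, a known hypoxia target, averaged 299.9 ± 7.39 CPM in MI against 156 ± 5.47 CPM in Sham, while the mitophagy kinase Pink1 averaged 73.9 ± 5.08 CPM in MI against 105 ± 3.27 CPM in Sham and Map1lc3b, the autophagosome protein LC3B, averaged 109 ± 4.21 CPM in MI against 148 ± 1.24 CPM in Sham.

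Sterol synthesis genes were lower at most steps. Of 27 tested genes of synthesis and uptake, 20 were lower in MI and 2 higher, with a median log2 fold change of -0.48, and with library size alone 23 and 1. Dhcr7, which carries out the last step to cholesterol, had 16, 13.7 and 12.8 CPM in MI, against 32.5, 33.2 and 30.8 CPM in Sham (log2 fold change -1.19 ± 0.084, edgeR adjusted p = 2.3e-09). Hmgcs1, an early step that makes HMG-CoA, had 84.6, 86.1 and 88.2 CPM in MI, against 114, 129 and 125 CPM in Sham. MI and Sham did not overlap in either gene. Fdft1, the first step committed to sterols, averaged 36.7 ± 1.44 CPM in MI against 65 ± 4.67 CPM in Sham, and Sqle, the next oxidation, averaged 58.4 ± 2.07 CPM in MI against 86.6 ± 2.8 CPM in Sham. Insig1, which retains the sterol sensor in the endoplasmic reticulum, went the other way, at 181 ± 5.16 CPM in MI against 146 ± 11.8 CPM in Sham. It is a known target of the same factor, SREBP2, as the synthesis genes, and the factor's own gene Srebf2 did not pass the test (94.4 ± 5.38 CPM in MI against 102 ± 4.97 CPM in Sham, edgeR adjusted p = 0.081). The letters TCACNCCAC, a form of the site this factor binds, were present in 1 of 19 matched promoters of the list (5.26%) and in 125 of 10845 of all (1.15%). The match was in Hmgcs1 and began 137 bases before the start site, in capitals here.
Hmgcs1 (chr13:119690101-119690400, plus strand): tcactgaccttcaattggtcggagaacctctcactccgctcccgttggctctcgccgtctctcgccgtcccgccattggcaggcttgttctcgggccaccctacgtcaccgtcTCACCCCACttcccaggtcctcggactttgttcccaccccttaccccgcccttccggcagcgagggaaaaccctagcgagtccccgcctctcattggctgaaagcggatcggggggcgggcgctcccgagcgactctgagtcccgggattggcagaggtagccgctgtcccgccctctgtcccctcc

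Genes of fatty acid synthesis were also lower more often than higher. Of 25 tested LXR targets and fatty acid synthesis genes, 16 were lower and 3 higher (median log2 fold change -0.38), and with library size alone 18 and 1. Fasn, the fatty acid synthase, had 103, 92.9 and 97.2 CPM in MI, against 189.6, 192 and 185 CPM in Sham (log2 fold change -0.96 ± 0.046, edgeR adjusted p = 1.2e-11). Acacb, the carboxylase that restrains fatty acid entry into mitochondria, averaged 37.8 ± 2.18 CPM in MI against 65.8 ± 0.495 CPM in Sham. Apoe, a lipid carrier and LXR target, averaged 237 ± 10.3 CPM in MI against 375 ± 14.6 CPM in Sham, and Mylip, a ubiquitin ligase and LXR target, averaged 10.6 ± 1.04 CPM in MI against 19.6 ± 1.61 CPM in Sham. The cholesterol exporters differed, with Abca1 at 175 ± 5.84 CPM in MI against 149.6 ± 0.526 CPM in Sham and Abcg1 at 33.5 ± 5.07 CPM in MI against 49.5 ± 1.41 CPM in Sham. Lipid droplet genes gave 7 of 29 higher and 7 lower, and with library size alone 6 and 11. The 48.3% called under the main scaling was near the 43.6% of all tested genes. Hilpda and G0s2, both inhibitors of the lipase ATGL, rose, at 30.3 ± 1.58 CPM in MI against 9.9 ± 0.769 CPM in Sham (Hilpda) and 181 ± 10.1 CPM in MI against 77 ± 7.29 CPM in Sham (G0s2). The droplet coat protein Plin2 averaged 221 ± 7.22 CPM in MI against 158 ± 5.87 CPM in Sham. Gpam, the first step of triglyceride synthesis, averaged 24.1 ± 1.25 CPM in MI against 49.5 ± 2.2 CPM in Sham.

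**Figure D5:**
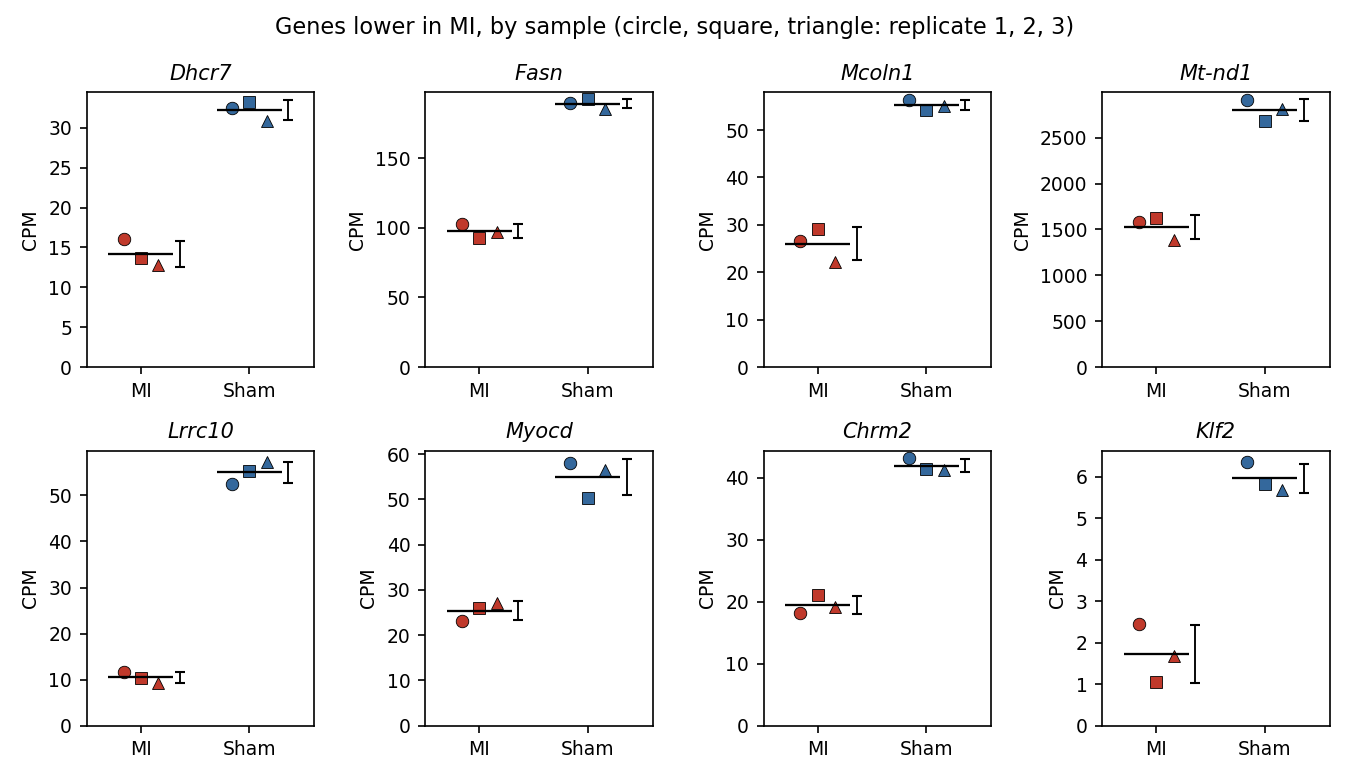
CPM of 8 genes in each library (MI left, Sham right), with group means as lines and SD bars (n = 3 each). In all 8 panels every MI library lies below every Sham library.

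Protein-coding transcripts of the mitochondrial chromosome were mostly lower, while its ribosomal RNAs were higher. Of the 13 protein genes, all tested, 11 were lower in MI and 0 higher, with a median log2 fold change of -0.50. Mt-nd1, a complex I subunit, had 1582, 1627 and 1381 CPM in MI, against 2914, 2678 and 2814 CPM in Sham (log2 fold change -0.87 ± 0.061, edgeR adjusted p = 2.3e-09). The 7 complex I genes were all lower, the smallest change among them being that of Mt-nd2 at 2424 ± 241 CPM in MI against 3429.8 ± 164 CPM in Sham. The cytochrome oxidase genes Mt-co1 and Mt-co3 did not pass the test, with log2 fold changes of -0.039 ± 0.052 (edgeR adjusted p = 0.59) and 0.058 ± 0.054 (edgeR adjusted p = 0.42), while Mt-co2 averaged 3802 ± 177 CPM in MI against 4790.2 ± 112 CPM in Sham. Mt-co1 and Mt-co3 were the most abundant of all genes, at a mean of 13050 and 8237 FPKM over the 6 libraries. Both ribosomal RNA genes in the files' annotation of that chromosome were called higher (2 of 2, median log2 fold change 0.807), and of 22 tested transfer RNA genes 2 were higher and 9 lower. The ribosomal gene AY172581.24, picked out after its values were seen, was uneven in MI. It had 3473, 1851 and 2007 CPM in MI, against 1240, 1273 and 1277 CPM in Sham. The libraries were of poly(A) RNA, and carry-over of ribosomal RNA was not tested. Nuclear genes of mitochondrial biogenesis and dynamics gave 9 of 31 higher and 5 lower, which turned to 5 higher and 12 lower with library size alone. Their share called under the main scaling, 45.2%, was near the 43.6% of all tested genes. Ppargc1a, a coactivator of mitochondrial genes, averaged 10.9 ± 0.669 CPM in MI against 14.6 ± 2.1 CPM in Sham, while Ppard, a receptor for fatty acids, averaged 90.5 ± 5.69 CPM in MI against 47 ± 2.1 CPM in Sham.

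Iron genes and glutathione transferases were lower more often than higher. The series is titled for mitochondrial ferritin, whose gene Ftmt was not analysed here. Of 24 tested ferritin and mitochondrial iron genes, 2 were higher and 7 lower, and with library size alone 2 and 15. Their share called under the main scaling, 37.5%, was below the 43.6% of all tested genes. Slc25a37, the mitochondrial iron importer mitoferrin 1, had 25.4, 21.7 and 26.2 CPM in MI, against 10.3, 12.6 and 11 CPM in Sham, and Alas1, the first step of haem synthesis, averaged 156 ± 5.56 CPM in MI against 95.6 ± 0.538 CPM in Sham. Fech, the last step, averaged 28.3 ± 2.0 CPM in MI against 36.4 ± 1.26 CPM in Sham. The ferritin heavy chain Fth1 did not pass the test (2443 ± 87.1 CPM in MI against 2533 ± 152 CPM in Sham, edgeR adjusted p = 0.41). Of 23 metallothionein and zinc transporter genes, 6 were higher and 5 lower, and with library size alone 3 and 11. Under the main scaling 47.8% were called, near the 43.6% of all tested genes. The metal-binding proteins Mt1 and Mt2A were lower, at 53.4 ± 4.8 CPM in MI against 109 ± 4.53 CPM in Sham (Mt1) and 696 ± 30.9 CPM in MI against 1186 ± 51.7 CPM in Sham (Mt2A), as was the zinc exporter Slc30a1 at 13 ± 1.01 CPM in MI against 25.2 ± 0.789 CPM in Sham. These 3 are known targets of the zinc sensor MTF1. Slc39a14, which imports zinc and iron, averaged 282 ± 31.4 CPM in MI against 175 ± 8.07 CPM in Sham. Glutathione transferases gave 1 of 19 higher and 8 lower, and with library size alone 0 and 13. Their share called under the main scaling, 47.4%, was near the 43.6% of all tested genes. Mgst1, a membrane-bound form, averaged 72.6 ± 1.73 CPM in MI against 136 ± 8.08 CPM in Sham. In the aryl hydrocarbon receptor list 3 of 12 were higher and 6 lower, and its target Nqo1 averaged 33.6 ± 1.95 CPM in MI against 49.3 ± 4.07 CPM in Sham.

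Stress genes of amino acid supply were higher under the main scaling. Of 26 tested ATF4 targets, 15 were higher and 1 lower, and with library size alone 8 and 4. Ddit4, an inhibitor of the growth kinase mTORC1, had 427, 357 and 394 CPM in MI, against 114, 123 and 109 CPM in Sham. Atf3 averaged 56 ± 12.1 CPM in MI against 21.1 ± 1.61 CPM in Sham, and Mthfd1l, of mitochondrial folate metabolism, averaged 49.7 ± 1.67 CPM in MI against 26 ± 1.24 CPM in Sham. Amino acid transporters gave 12 of 29 higher and 7 lower, which turned to 8 and 11 with library size alone. Slc7a11, the cystine importer, averaged 13.6 ± 1.42 CPM in MI against 6.85 ± 0.539 CPM in Sham. The lysosomal exporter Slc36a1 averaged 13.8 ± 1.71 CPM in MI against 27 ± 1.28 CPM in Sham. Of 26 p53 targets, 12 were higher and 7 lower, and with library size alone 9 and 11. The cell cycle inhibitor Cdkn1a averaged 150.0 ± 14.9 CPM in MI against 79 ± 5.57 CPM in Sham and the death receptor Fas 55.5 ± 3.92 in MI against 15.4 ± 3.13 in Sham CPM, whereas the target Sesn1 averaged 19.6 ± 0.877 CPM in MI against 36.7 ± 1.78 CPM in Sham.

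Receptors for hormones and local mediators included several large rises. Of 39 tested, 18 were higher and 5 lower, and with library size alone 16 and 9. S1pr3, a receptor of sphingosine phosphate, had 404, 437 and 435 CPM in MI, against 64.1, 80.6 and 75.9 CPM in Sham (log2 fold change 2.53 ± 0.079, edgeR adjusted p = 7.7e-13). Bdkrb1, the injury-induced bradykinin receptor, had 15.4, 15 and 13.4 CPM in MI, against 2.57, 2.08 and 2.85 CPM in Sham, and Adora2a, an adenosine receptor, averaged 49 ± 3.11 CPM in MI against 14.4 ± 1.76 CPM in Sham. Chrm2, the muscarinic receptor through which the vagus slows the heart, had 18.2, 21.1 and 19.1 CPM in MI, against 43.1, 41.4 and 41.3 CPM in Sham. Of 14 vasoactive peptide genes, 6 were higher and 4 lower. Nppb, whose product is the heart failure marker BNP, had 1037, 950.2 and 934 CPM in MI, against 474, 515 and 462 CPM in Sham, and Edn1, the vasoconstrictor endothelin, averaged 12.6 ± 1.03 CPM in MI against 7.56 ± 0.497 CPM in Sham. Angiotensinogen (Agt) averaged 2.58 ± 0.177 CPM in MI against 5.0 ± 0.133 CPM in Sham.

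Contractile genes were higher more often than lower, in non-muscle, smooth muscle and striated forms. Of 40 tested myosin, actin and troponin genes, 21 were higher and 2 lower, and with library size alone 17 and 6. Myh9 and Myh10, non-muscle myosins, averaged 852 ± 26.3 CPM in MI against 509 ± 63 CPM in Sham (Myh9) and 523 ± 33.6 CPM in MI against 341 ± 9.91 CPM in Sham (Myh10), and Acta2, the actin of smooth muscle and myofibroblasts, averaged 2085 ± 93.4 CPM in MI against 1422 ± 72.1 CPM in Sham. The striated actins Actc1, of heart muscle, and Acta1, of skeletal muscle, averaged 9496 ± 568 CPM in MI against 7892 ± 462 CPM in Sham (Actc1) and 1314 ± 108 CPM in MI against 1022 ± 65.4 CPM in Sham (Acta1), and the troponin Tnnc1 of heart and slow muscle averaged 892 ± 85.1 CPM in MI against 747 ± 3.48 CPM in Sham. With library size alone these 3 striated genes did not pass the test, and the calls of Actc1 and Acta1 were also lost when some single libraries were left out (MI replicate 1 or 2, Sham replicate 2 or 3). Smooth muscle and pericyte markers summed to 3430 to 3670 FPKM in MI and 2490 to 2660 FPKM in Sham, with 11 of 14 higher and 1 lower, or 9 and 2 with library size alone. Tagln, an actin-binding smooth muscle marker, had 1065, 1011 and 1110.3 CPM in MI, against 394, 378 and 342 CPM in Sham. Epicardial markers summed to 93.1 to 96.2 FPKM in MI and 61.9 to 65.9 FPKM in Sham, with 7 of 10 higher and 0 lower, or 6 and 2 with library size alone. Of 8 atrial markers 2 were higher and 2 lower, or 2 and 4 with library size alone. The 50% of them called under the main scaling was near the 43.6% of all tested genes. Of 11 fibroblast markers 5 were higher and 2, Dcn and Tcf21, were lower. The part of cell content in these values was not tested. The 2 contractile genes that fell belong to heart muscle. Myh6, the alpha myosin of the heart, had 6760.4, 8046 and 7541 CPM in MI, against 10370.4, 9994 and 9830.2 CPM in Sham (log2 fold change -0.43 ± 0.061, edgeR adjusted p = 1.4e-05), and Mylk3, the cardiac myosin light chain kinase, averaged 90.7 ± 8.99 CPM in MI against 169.5 ± 9.77 CPM in Sham. Myh7, the fetal counterpart of Myh6, did not pass the test (4327 ± 406 CPM in MI against 4916 ± 204 CPM in Sham, edgeR adjusted p = 0.062). Over the 19 cardiomyocyte markers 4 were higher and 3 lower, which turned to 1 and 7 with library size alone. The 36.8% called under the main scaling was below the 43.6% of all tested genes.

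Transcription factors of heart development were lower more often than higher. Of 36 tested, 8 were higher and 14 lower, and with library size alone 4 and 18. Tbx20, a T-box factor needed in adult heart muscle, had 91.2, 105 and 95.7 CPM in MI, against 179, 163 and 163 CPM in Sham. Myocd, the coactivator of smooth and heart muscle genes, had 23.2, 26 and 27.2 CPM in MI, against 58, 50.4 and 56.5 CPM in Sham (log2 fold change -1.11 ± 0.10, edgeR adjusted p = 1.1e-07). Nkx2-5 and Hand2 averaged 24.8 ± 2.66 CPM in MI against 35.3 ± 2.23 CPM in Sham (Nkx2-5) and 5.6 ± 0.405 CPM in MI against 10.1 ± 0.792 CPM in Sham (Hand2). Klf2, a shear-responsive factor of endothelium, had 2.45, 1.05 and 1.68 CPM in MI, against 6.37, 5.83 and 5.69 CPM in Sham. Gata4 went the other way, with 348, 388 and 366 CPM in MI, against 219.7, 209.8 and 203 CPM in Sham, and so did Tbx3, a factor of the conduction system, at 13.3 ± 0.879 CPM in MI against 5.04 ± 0.991 CPM in Sham.

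Over all transcription factors in the authors' deposited annotation, 267 of 1159 tested were higher and 276 lower. The 46.9% called was near the 43.6% of all tested genes (22.8% higher, 20.8% lower), which is also the background for the families below. The split of this total with library size alone is not given here. The Rel family had 8 of 10 higher and 1 lower, ETS factors 12 of 25 and 1, and basic leucine zippers 21 of 50 and 4. Zinc finger factors of the C2H2 class went the other way, with 53 of 436 higher and 143 lower. With library size alone the ETS family had 11 higher and 5 lower, basic leucine zippers 13 and 9, and C2H2 zinc fingers 34 and 231. Meox1, a homeobox factor, averaged 26.6 ± 2.05 CPM in MI against 3.88 ± 0.903 CPM in Sham, and Fosl1, an AP-1 subunit, averaged 53.3 ± 3.78 CPM in MI against 8.7 ± 0.531 CPM in Sham. Both were picked out after their values were seen.

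The 12 largest falls were Ces1d, Lrrc10, Rab38, Fbln7, Klf2, Pvalb, Jade2, Gpr22, Orm1, Gja5, Rab3il1 and Ston1. Several are known from heart muscle or its conduction tissue. Lrrc10, a heart-restricted protein near the Z disc, had 11.7, 10.4 and 9.31 CPM in MI, against 52.5, 55.2 and 57.2 CPM in Sham (log2 fold change -2.39 ± 0.10, edgeR adjusted p = 3.1e-12). Gja5, connexin 40 of atria, conduction fibres and arterial endothelium, had 22.9, 25.1 and 22 CPM in MI, against 66.6, 67.2 and 82.3 CPM in Sham. Gpr22, an orphan receptor known from heart and brain, had 4.33, 2.81 and 2.22 CPM in MI, against 9.67, 8.35 and 11 CPM in Sham. Ces1d, a carboxylesterase that hydrolyses lipids, had 0.906, 0.424 and 1.04 CPM in MI, against 4.59, 6.19 and 5.8 CPM in Sham. The rule that picked the 12 falls required no overlap between MI and Sham. Jade2, part of a histone acetyltransferase complex, averaged 8.81 ± 0.905 CPM in MI against 28.4 ± 0.784 CPM in Sham, and the acute-phase protein Orm1 averaged 2.44 ± 0.37 CPM in MI against 7.53 ± 1.13 CPM in Sham. Among the genes with the largest losses in absolute level, picked out after their values were seen, were Mgp, an inhibitor of calcification, at 2688 ± 44 CPM in MI against 4141 ± 181 CPM in Sham, and the secreted peroxidase Gpx3 at 1184 ± 58.4 CPM in MI against 1899.6 ± 31.2 CPM in Sham.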

How the data were processed

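Per the labels' protocols, poly(A) RNA was made into stranded paired-end libraries. Per the submitters' processing notes, the tools were HISAT2 2.2.1, cutadapt 1.9, edgeR, DESeq2, StringTie 2.1.6 and FastQC, in an order not given. The authors deposited whole-number counts per gene, not normalised, and FPKM per gene, scaled by the authors for length and depth. The genome build and whether counting used the strand are not given in the sources used here, so antisense or overlapping genes may share reads. Symbols came from the FPKM table by gene identifier.

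Low genes were dropped by filterByExpr of edgeR (at least 10 counts in enough libraries and 15 in total), so 16910 of 32623 genes were tested. A total of 10070 genes were at 0 throughout. Counts were scaled by TMM and tested in edgeR 4.0.16 (R 4.3.3) with robust quasi-likelihood F tests across all genes. All 12 libraries entered 1 fit, the contrast was MI minus Sham, and p-values were adjusted by Benjamini-Hochberg at 0.05. The test was checked on simulated counts. Depth ran from 45.5 to 60.8 M counts (M for mega), at which 3 counts equal 0.0469 to 0.0663 CPM. Such floors cover counting error only. Alternatives used library size alone, RLE factors, DESeq2 1.42.0, no filter, 6 libraries, a replicate block, limma 3.58.1 on log2(FPKM + 1) and log2(FPKM + 0.1), and each library left out.

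The comparison and the 55 gene lists (1357 entries, of which 46 had no match and were not analysed here) were chosen with earlier results of these data known, so list counts are descriptions. Named genes are the 12 largest rises and 12 largest falls (called, at least 5 CPM, no overlap), the 12 highest in FPKM, the members with the smallest p in each list (up to 4 each way), and other list members described, and some genes it picks are not reported here. The few outside it are said to be so, and the genes whose promoters matched a motif are named by that match.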

Additional observations from a re-analysis of the deposited data

How the results depend on the processing

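The choice of scaling mattered most. With library size alone 2414 genes were higher in MI and 5943 lower. On FPKM with limma, which was scaled by depth alone too, 2296 were higher and 5559 lower with a pseudocount of 1, and 2288 and 5518 with 0.1. Elsewhere the totals stayed near 7369: 7363 with RLE factors, 7387 with DESeq2, 7065 with no filter and 7467 with only the 6 libraries. Leaving out each library gave 6412 to 6844 genes, with 3429 to 3614 higher and 2960 to 3230 lower. MI and Sham libraries share replicate numbers, but same-numbered libraries did not deviate together (r = 0.032, -0.0122 and 0.00243), and the fit with the replicate block called 7631 genes. No gene called both by the main fit and by an alternative changed sign. Of 429 single genes followed under the alternatives, 43 lost their call under at least 1 alternative. The direction turned for 4 genes, and the cause was not tested. With library size alone the log2 fold change was -0.104 for Mt-co3, -0.00931 for Elovl5 and -0.037 for Cyld. On FPKM it was -0.095, -0.000884 and -0.026 for the same genes with a pseudocount of 1, and -0.095, -0.000908 and -0.0302 with 0.1. For Mt-co1 it ran from -0.0733 to 0.00723 as each library was left out.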
